A study of Homo sapiens with 4 samples.

Results

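The activator protein AP-1 and the related CREB-type factors were described here through 10 genes, namely the 4 FOS genes (FOS, FOSB, FOSL1 and FOSL2), the 3 JUN genes (JUN, JUNB and JUND), and CREB1, ATF2 and CREB5. They were taken by symbol, as 10 of the 58735 genes in the count table, and all 10 passed the filter on low counts. RNA-seq was carried out on 4 libraries from cells of wild-type genotype, labelled as the lung adenocarcinoma line A549, grown in serum-containing medium. The cells were stained with an antibody against ICAM1, an adhesion glycoprotein that binds leukocyte integrins, and sorted by flow cytometry into an ICAM1-high subset (2 libraries) and an ICAM1-low subset (2 libraries). Both subsets carry the label of a single cell line, neither received a drug or stimulus per the labels, and no unsorted cells were compared. Separate cultures are not stated in the labels, and the p-values therefore rest on the scatter of these 4 libraries, which may be technical.

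AP-1 is a dimer of basic leucine zipper (bZIP) proteins. A JUN protein pairs with itself, with a FOS protein, or with ATF2 or its relative CREB5, and the dimer binds DNA at AP-1 elements or at the similar cAMP response elements. FOS, FOSB, JUN and JUNB are immediate early genes, switched on transiently by growth factor and stress signals. FOSL1 (FRA-1) and FOSL2 (FRA-2) are made later and are sustained by ERK signalling in many carcinomas. CREB1 is a broadly expressed factor that protein kinase A and other kinases activate by phosphorylation, and FOS is among the genes it is known to induce.

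Total counts were between 16272591 and 17638647 per library, and 3 counts corresponded to 0.161 to 0.196 CPM (counts scaled to 1e6 per library with TMM factors). Levels are given in these CPM. Log2 fold changes with their standard error (SE) are above 0 where a gene was higher in ICAM1-high. A gene was called at a Benjamini-Hochberg adjusted p under 0.05 in edgeR's quasi-likelihood test over all 16250 genes tested. ICAM1, the sorting marker, was at 116 and 110 CPM in ICAM1-high and at 4.61 and 4.89 CPM in ICAM1-low. CDKN2A, CDKN2B and MTAP, neighbouring genes on chromosome 9 that A549 is known to have lost, had 1009 and 1214, 174 and 182, and 459 and 463 counts in ICAM1-high, which goes against their cell line label. In the ICAM1-low libraries CDKN2A and CDKN2B had 0 counts, and MTAP had 1 and 8. Their part in the differences given here was not tested. Of 12 markers of A549 and lung epithelium 10 were tested, of which ICAM1-high had 4 higher and 5 lower, with a median log2 fold change of -0.10 (4 higher and 4 lower with library size alone, median 0.07). KRT8 (1.253), KRT19 (1.07) and KRT18 (0.29), epithelial keratins, and CDH1 (0.15) were higher. KRT7 (-1.05), AKR1B10 (-0.79), AKR1C1 (-0.31), EPCAM (-0.63) and ALDH1A1 (-1.06), a retinaldehyde dehydrogenase typical of A549, were lower. EPCAM had 39 and 64 counts in ICAM1-high and 73 and 61 in ICAM1-low, and the lung lineage factor NKX2-1 between 1 and 4 per library.

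The proximal promoters of FOS and FOSB, which were higher in ICAM1-high, and of FOSL2 and JUN, which were at least 2-fold lower, are shown for comparison, since the counts of these genes moved apart. Promoters of 8 of the 10 genes were found in the RefSeq table (GRCh38.p14), and FOSL1 and ATF2 were not matched. Each window runs 5′ to 3′ on the strand of the gene, from 250 bases before the start to 50 bases from the start on. FOS lies on the plus strand at chr14:75278578-75278877, FOSB on the plus strand at chr19:45467746-45468045, FOSL2 on the plus strand at chr2:28392608-28392907 and JUN on the minus strand at chr1:58783998-58784297. Capitals mark every match to TGACTCA (the AP-1 element) or TGACGTCA (the cAMP response element), to TGACG, which is contained in the latter, on either strand, and to TATAA on the strand of the gene.
FOS: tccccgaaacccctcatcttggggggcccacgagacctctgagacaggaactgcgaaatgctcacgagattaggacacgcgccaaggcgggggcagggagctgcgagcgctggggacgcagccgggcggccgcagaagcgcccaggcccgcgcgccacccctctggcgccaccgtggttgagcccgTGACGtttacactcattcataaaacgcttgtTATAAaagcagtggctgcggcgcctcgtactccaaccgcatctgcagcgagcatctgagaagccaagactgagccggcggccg
FOSB: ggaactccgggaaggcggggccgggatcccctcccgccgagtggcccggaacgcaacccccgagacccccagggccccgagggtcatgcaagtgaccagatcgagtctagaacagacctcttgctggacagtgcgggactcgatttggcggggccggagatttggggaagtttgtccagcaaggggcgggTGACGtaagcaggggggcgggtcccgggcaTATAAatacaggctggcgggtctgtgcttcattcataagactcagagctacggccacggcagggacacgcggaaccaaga
FOSL2: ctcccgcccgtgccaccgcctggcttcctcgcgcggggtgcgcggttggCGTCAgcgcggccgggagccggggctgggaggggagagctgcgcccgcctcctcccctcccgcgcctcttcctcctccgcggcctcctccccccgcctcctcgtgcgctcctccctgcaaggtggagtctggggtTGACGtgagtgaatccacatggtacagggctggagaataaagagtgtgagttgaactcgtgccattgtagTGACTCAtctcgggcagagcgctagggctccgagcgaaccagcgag
JUN: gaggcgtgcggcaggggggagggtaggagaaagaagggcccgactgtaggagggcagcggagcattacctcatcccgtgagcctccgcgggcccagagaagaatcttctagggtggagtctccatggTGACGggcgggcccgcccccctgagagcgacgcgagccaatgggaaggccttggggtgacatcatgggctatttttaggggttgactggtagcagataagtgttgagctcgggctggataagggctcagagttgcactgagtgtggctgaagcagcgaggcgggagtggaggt
FOS and FOSB had the same layout, with 1 TGACG beginning 64 and 60 bases before the start and 1 TATAA beginning 33 and 30 bases before it. FOSL2 and JUN held no TATAA in this window. Both of their windows lie within the gene positions given below, so the sequence before the outermost annotated start was not searched. FOSL2 held TGACTCA at position 255 of the window, just past the start, and TGACG on both strands, at positions 50 and 185. JUN held a single TGACG, 123 bases before the start. Only exact letters were searched, so variants such as the TGACATCA in the JUN window stand in lower case. Among 35116 promoter windows of this length, 4.95% held TGACTCA, 1.85% TGACGTCA, 24.6% TGACG and 14.8% TATAA. Of the promoters not shown, JUND held TGACGTCA and TATAA, JUNB held TGACG and TATAA, and CREB1 held none of these letters. CREB5 has 3 starts in the table, 2 of which held TATAA and the other TGACTCA, and gene counts do not tell its starts apart. TATAA thus stood both in genes that were higher and in genes that were lower in ICAM1-high.

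Within this set, FOS and FOSB were higher in ICAM1-high and 7 genes were lower, so that 9 of 10 were called. Of all genes tested, 59.7% were called, 30.4% as higher and 29.4% as lower, so the number of calls alone sets the factors little apart. At least 2-fold lower were CREB5, FOSL2, FOSL1 and JUN, 4 of 10, beside 4.71% of all genes tested. FOSB was the only one at least 2-fold higher, beside 10.8% of all genes tested. The median log2 fold change of the 10 genes was -0.52, and 0.01 over all genes tested. In bulk RNA of sorted cells, fewer cells that express a gene and less RNA per cell cannot be told apart.

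**Figure D1:**
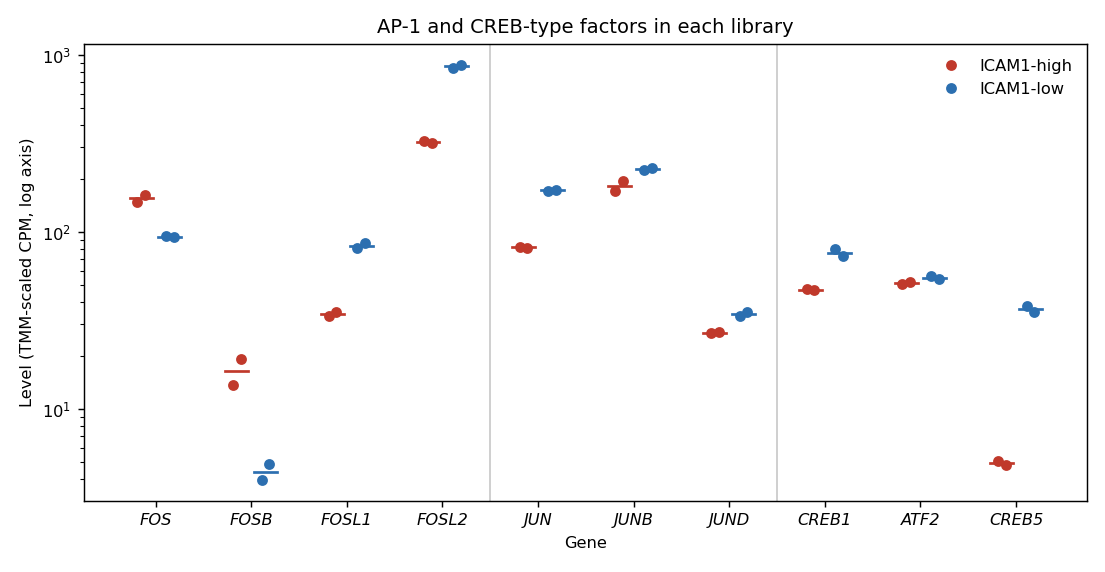
Level of each factor in each library (TMM-scaled CPM, log axis), with 2 ICAM1-high libraries in red and 2 ICAM1-low libraries in blue, and lines at the means of each subset. FOS and FOSB sit higher in ICAM1-high, and FOSL1, FOSL2, JUN, CREB1 and CREB5 sit lower. JUNB and JUND are lower by less, and the subsets lie closest together for ATF2.

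FOS proteins cannot pair with one another and serve as partners of JUN proteins. FOS itself (ENSG00000170345, chromosome 14, 75278774 to 75282230, plus strand) was at 147 and 163 CPM in the ICAM1-high libraries and at 95.2 and 93.0 CPM in the ICAM1-low libraries. The subsets did not overlap here, nor in any other of the 10 genes, among them ATF2, which was not called. The share of all genes without overlap was not counted, so this does not set the 10 genes apart from other genes. For FOS the log2 fold change was 0.72 (SE 0.05, adjusted p = 5.75e-19), a 1.64-fold difference, at the 83.7th percentile of fold changes over all genes tested. FOSB (ENSG00000125740, chromosome 19, 45467995 to 45475179, plus strand), a close relative of FOS with the same immediate early behaviour, was at 13.6 and 19.2 CPM in ICAM1-high and at 3.97 and 4.89 CPM in ICAM1-low. Per exon length it was the least abundant of the 4 FOS genes in both subsets, and its ICAM1-high libraries differed from each other more than those of any other factor of this set. The difference was 1.89 on the log2 scale (SE 0.16, adjusted p = 3.30e-15), and between 1.62 and 2.11 when each library was left out in turn.

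The FOS-related antigens moved the other way. FOSL2 (ENSG00000075426, chromosome 2, 28392448 to 28417312, plus strand) was at 325 and 319 CPM in the ICAM1-high libraries and at 846 and 879 CPM in the ICAM1-low libraries, the most reads of all 10 genes. The difference was -1.42 on the log2 scale (SE 0.04, adjusted p = 2.10e-42), a 2.68-fold higher level in ICAM1-low. FOSL1 (ENSG00000175592, chromosome 11, 65892049 to 65900573, minus strand), a factor known for sustained expression downstream of RAS and ERK, was at 33.5 and 35.3 CPM in ICAM1-high and at 80.8 and 86.5 CPM in ICAM1-low. The difference was -1.28 on the log2 scale (SE 0.07, adjusted p = 1.72e-26). For both genes the libraries of a subset lay close together beside the difference between the subsets.

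The balance within the FOS family therefore differed between the subsets. In a ratio of counts within 1 library the scaling between libraries cancels. Counts of FOS over those of FOSL2 were 0.452 and 0.510 in ICAM1-high and 0.113 and 0.106 in ICAM1-low. This was a log2 difference of 2.14 (SE 0.10 from 2 libraries per subset), or 4.401-fold. FOSB over FOSL1 was at 0.405 and 0.542 against 0.0491 and 0.0566, an 8.90-fold difference. Both ratios set a gene that was higher over a gene that was lower, so they restate the differences given above. Of 4 such ratios compared (these, JUNB over JUN, and CREB1 over CREB5), each gave p = 0.333 in a two-sided exact permutation test (adjusted p = 0.333). That is the smallest value that 2 libraries against 2 allow, so this test could not call a difference.

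Divided by exon length, so that levels of different genes can be set side by side, FOS made up 41.9% ± 1.44 (SD, n = 2) of the summed FOS family CPM per kilobase in ICAM1-high and 14.9% ± 0.633 (n = 2) in ICAM1-low. FOSL2 made up 39.5% ± 1.997 in ICAM1-high and 61.9% ± 0.0813 in ICAM1-low. FOS and FOSL2 thus stood at like levels per length in ICAM1-high, while FOSL2 led in ICAM1-low. FOSL1 made up 16.002% ± 0.0228 and 22.7% ± 0.502, and FOSB 2.58% ± 0.530 and 0.409% ± 0.0499. The summed level of the family was 111 and 117 CPM per kilobase in ICAM1-high and 191 and 198 in ICAM1-low. With the longest protein-coding transcript as the length, FOS was at 49.5% and FOSL2 at 33.2% in ICAM1-high, so that their order there depends on the length used.

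**Figure D2:**
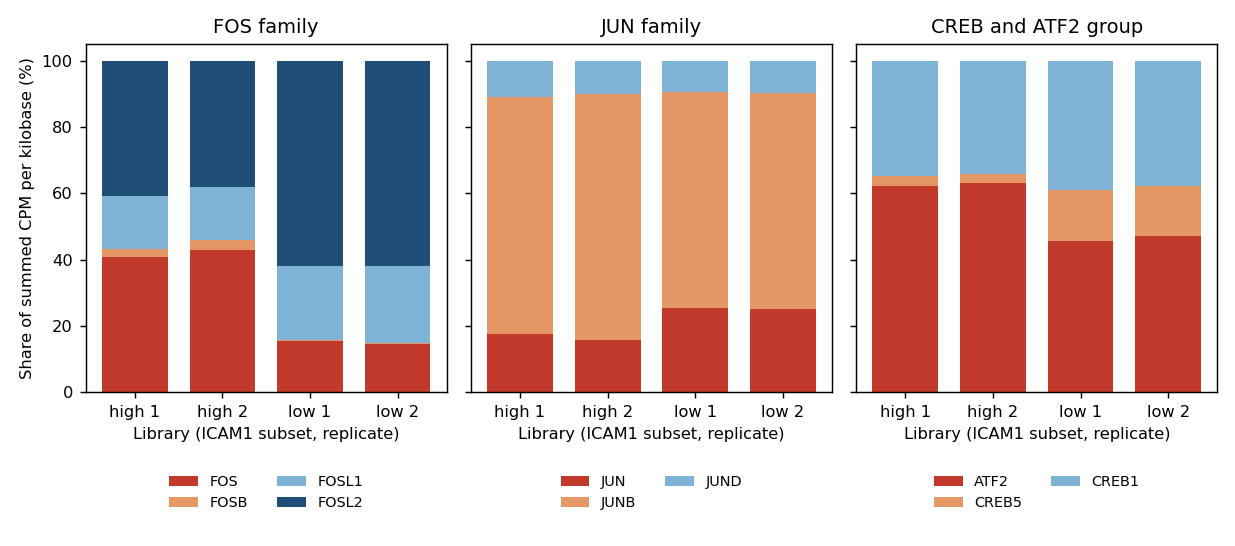
Share of each gene in the summed CPM per kilobase of exon of its family (percent, stacked to 100), for each of the 4 libraries. FOS takes 41.9% of its family in ICAM1-high against 14.9% in ICAM1-low, and JUNB is the largest part of the JUN family in all 4 libraries. Of the sum of ATF2, CREB1 and CREB5 alone, CREB5 takes 15.2% in ICAM1-low and 2.96% in ICAM1-high.

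JUN proteins are the obligate partners in AP-1. JUN (ENSG00000177606, chromosome 1, 58780788 to 58784327, minus strand), the founding member and a target of the kinase JNK, was at 82.3 and 81.4 CPM in ICAM1-high and at 171 and 173 CPM in ICAM1-low. The libraries of each subset were nearly equal, and the log2 fold change was -1.07 (SE 0.05, adjusted p = 2.12e-28). JUNB (ENSG00000171223, chromosome 19, 12791496 to 12793315, plus strand), an immediate early gene whose protein is a weaker activator than JUN, was at 170 and 195 CPM against 223 and 229 CPM. JUND (ENSG00000130522, chromosome 19, 18279760 to 18281622, minus strand), the most constitutive of the JUN genes, was at 26.8 and 27.2 CPM against 33.6 and 35.2 CPM. Both differences were small beside that of JUN. On the log2 scale JUNB differed by -0.31 (SE 0.05, adjusted p = 2.53e-07) and JUND by -0.35 (SE 0.09, adjusted p = 3.21e-04).

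The small differences of JUNB and JUND depended on the scaling. Scaling by library size alone shifted the median of all genes tested by 0.173 (log2) and the share of higher calls from 50.8% to 68.3% (41.4% of all genes tested higher and 19.2% lower), and gave JUNB -0.13 (adjusted p = 0.0165) and JUND -0.18 (adjusted p = 0.0701). Counts of JUNB over those of JUN were 2.07 and 2.39 in ICAM1-high and 1.31 and 1.33 in ICAM1-low. Per length, JUNB made up 72.7% ± 1.93 (SD, n = 2) of the JUN family in ICAM1-high and 65.0% ± 0.0828 in ICAM1-low, and JUN 16.8% ± 1.29 and 25.4% ± 0.233. JUNB shares 259 exonic bases with HOOK2 on the opposite strand, and no source used here gives the strand setting of the counting, so reads of these genes may be mixed. HOOK2 had 1532 counts over the 4 libraries, and JUNB 6750 in ICAM1-high and 6994 in ICAM1-low.

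CREB5 (ENSG00000146592, chromosome 7, 28299321 to 28825894, plus strand), a relative of ATF2 that can pair with JUN, showed the largest difference of the 10 genes. It was at 5.10 and 4.79 CPM in ICAM1-high and at 37.99 and 35.3 CPM in ICAM1-low, from 95 and 88 against 594 and 541 counts. The log2 fold change was -2.89 (SE 0.12, adjusted p = 1.23e-32), a 7.40-fold higher level in ICAM1-low, at the 0.0738th percentile of fold changes over all genes tested. ATF2 (ENSG00000115966, chromosome 2, 175072250 to 175168382, minus strand), which p38 and JNK activate by phosphorylation, did not pass the test. It was at 51.1 and 52.1 CPM against 56.2 and 54.1 CPM, with a log2 fold change of -0.10 (95% interval -0.23 to 0.04, adjusted p = 0.226), and 0.08 when scaled by library size alone. CREB1 (ENSG00000118260, chromosome 2, 207529737 to 207603431, plus strand) was at 47.5 and 46.8 CPM against 80.1 and 72.7 CPM, which on the log2 scale was -0.70 (SE 0.07, adjusted p = 1.02e-14).

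Among ATF2, CREB1 and CREB5, ATF2 led per length in both subsets. It made up 62.6% ± 0.641 (SD, n = 2) of their summed level in ICAM1-high and 46.3% ± 0.938 in ICAM1-low. CREB5 made up 2.96% ± 0.139 in ICAM1-high and 15.2% ± 0.0923 in ICAM1-low. Counts of CREB1 over those of CREB5 were 9.33 and 9.76 in ICAM1-high and 2.11 and 2.06 in ICAM1-low, a 4.58-fold difference. The levels of CREB1 and CREB5 thus differed in the same direction and by different amounts. The shares leave out the relatives ATF1, ATF7 and CREM and would change with them. ATF1 was at 60.7 and 61.4 CPM in ICAM1-high and at 71.7 and 69.5 CPM in ICAM1-low. Its exons span 2790 bases against 5751 for ATF2, so per length it stood above ATF2. ATF7 stood below ATF2 in both subsets, and CREM below it in ICAM1-high and above it in ICAM1-low.

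**Figure D3:**
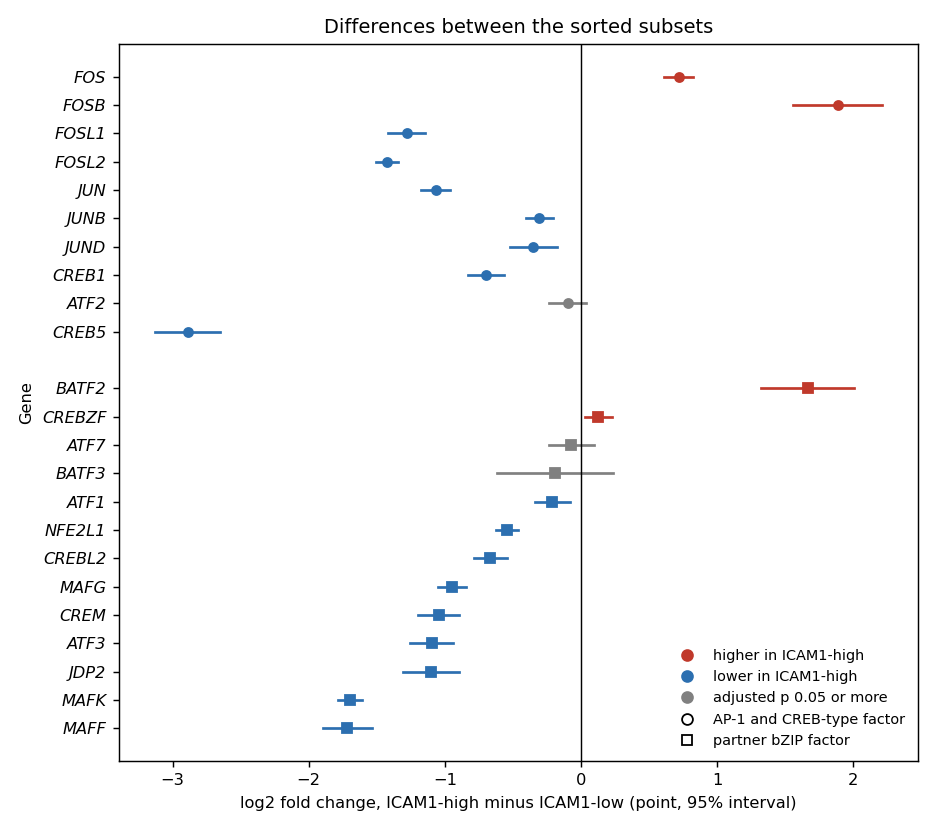
Log2 fold change (ICAM1-high minus ICAM1-low) with its 95% interval from edgeR for the 10 factors (circles) and 13 partner bZIP genes that were tested (squares), coloured by call. FOS, FOSB and BATF2 lie clearly above 0, CREB5 lies lowest at -2.89, and the small MAF genes MAFF and MAFK lie near -1.7.

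Partner bZIP genes outside the 10 were mostly lower in ICAM1-high. Of 14 listed, 13 were tested, 9 were lower and 2 higher, with a median log2 fold change of -0.67. MAFK, a small MAF protein that lacks an activation domain and pairs with FOS or NRF2-type factors, was at 143 and 155 CPM in ICAM1-high and at 481 and 485 CPM in ICAM1-low (log2 fold change -1.70, SE 0.04). The other small MAF genes, MAFF (-1.72, SE 0.09) and MAFG (-0.94, SE 0.05), were lower as well. ATF3, a stress-induced factor that represses many targets, was at 27.5 and 25.8 CPM against 60.3 and 53.5 CPM (log2 fold change -1.10, SE 0.08). The 2 higher genes, chosen after their values were seen, were BATF2, an interferon-responsive partner of JUN (1.66, SE 0.17), and CREBZF (0.13, SE 0.05). BATF had 0 counts in all 4 libraries.

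Genes of the kinase pathways that lead to these factors were split. Of 23 genes of the JNK, ERK, p38, MSK and protein kinase A pathways, 10 were higher, 6 lower and 7 not called. Their median log2 fold change was 0.07. The list also takes in MAP2K genes, which act on the MAP kinases, other RPS6KA kinases, and regulatory subunits of protein kinase A. MAP2K6, an activator of p38, was higher by 1.13 (SE 0.07), and RPS6KA4, which encodes the CREB1 kinase MSK2, by 0.55 (SE 0.06). The other RPS6KA genes listed were split, with RPS6KA1 higher (0.53, SE 0.09) and RPS6KA5 (-0.44, SE 0.14) and RPS6KA3 (-0.35, SE 0.04) lower. MAP2K3, the other main activator of p38, had a log2 fold change of -0.80 (SE 0.06), and PRKAR1A, a regulatory subunit that holds protein kinase A inactive, of -0.68 (SE 0.04). With library size alone, 13 were higher and 3 lower.

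Among SRF and the ELK and MRTF factors that bind with it, 3 of 6 genes were lower and 0 higher, with a median of -0.14. ELK3 (-0.63, SE 0.06), ELK4 (-0.40, SE 0.06) and MRTFA (-0.22, SE 0.06) were lower, while SRF had a log2 fold change of 0.09 (adjusted p = 0.350). With library size alone 2 were lower, 2 were higher and the median was 0.04. Of 5 CREB coactivator genes, the acetyltransferases EP300 (-0.38, SE 0.05) and CREBBP (-0.32, SE 0.05) were lower, and CRTC3 (0.35, SE 0.06) and CRTC2 (0.26, SE 0.07), which bind CREB1 when cAMP is raised, were higher. Of 10 genes for turnover and repression of AP-1, 5 were lower and 3 higher, with a median of -0.10, and 2 lower and 3 higher with library size alone (median 0.07). TRIB2, a pseudokinase adaptor of the ubiquitin ligase COP1, was at 11.5 ± 0.0438 CPM (SD, n = 2) in ICAM1-high and at 1.26 ± 0.303 CPM in ICAM1-low (log2 fold change 3.19, SE 0.22). MEN1, whose product menin binds JUND, was higher by 0.87 (SE 0.07), and SIRT1 (-1.02, SE 0.07) and NCOR1 (-0.57, SE 0.04) were lower.

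Immediate early genes other than the FOS and JUN genes were mostly lower in ICAM1-high. Of 23 listed, 21 were tested, 15 were lower and 4 higher, with a median log2 fold change of -1.10. PPP1R15A, a phosphatase subunit of the stress response, was at 103 and 99.6 CPM against 373 and 370 CPM. KLF6, a zinc finger factor, was at 78.2 and 76.5 CPM against 268 and 266 CPM, and the ERK phosphatase gene DUSP5 was at 61.9 and 60.3 CPM against 224 and 214 CPM. In each case the ICAM1-low libraries were over 2-fold higher, with log2 fold changes of -1.87, -1.79 and -1.84 (SE 0.05 each). DUSP1, a phosphatase of JNK and p38 that also stands in the lists of AP-1 and CREB targets, had a log2 fold change of -1.52 (SE 0.04). The 4 higher genes, chosen after their values were seen, were EGR1 (0.26), MYC (0.23), IER5 (0.95) and BTG2 (0.80). EGR1, which like FOS is induced through SRF, was at 140 and 163 CPM in ICAM1-high and at 125 and 128 CPM in ICAM1-low.

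**Figure D4:**
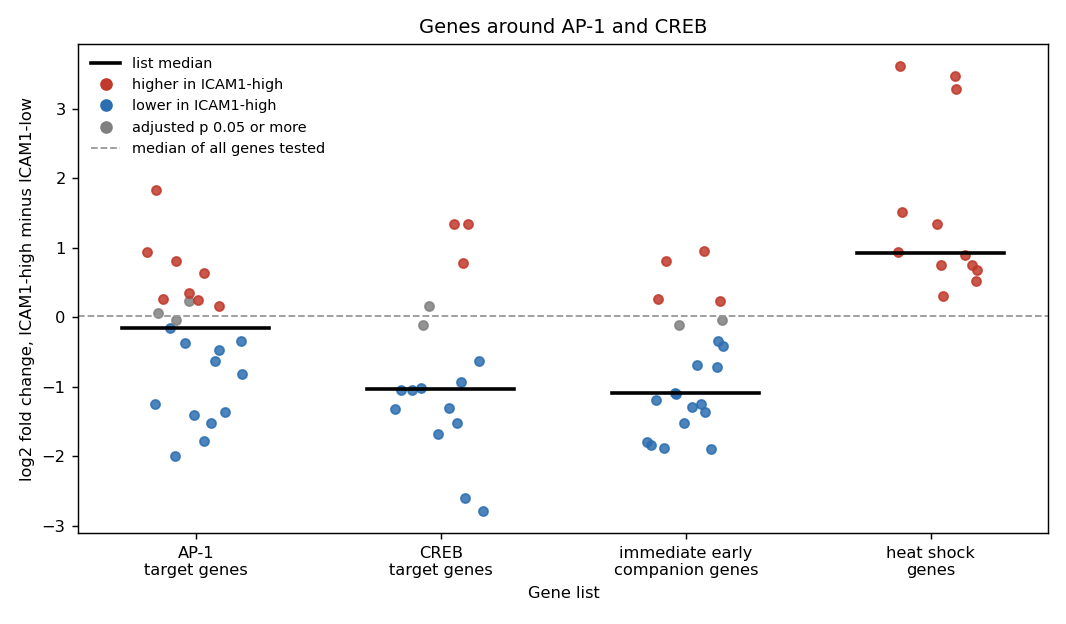
Log2 fold change (ICAM1-high minus ICAM1-low) of each tested gene in lists of AP-1 targets, CREB targets, other immediate early genes and heat shock genes, coloured by call, with the list median as a black bar and the median of all genes tested dashed. Immediate early genes centre at -1.10 and CREB targets at -1.03, AP-1 targets spread to both sides of 0, and all 12 heat shock genes lie above 0.

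Genes known as AP-1 targets went both ways. Of 30 listed, 23 were tested, 12 were lower and 8 higher, with a median log2 fold change of -0.15. With library size alone 11 were lower and 9 higher, and the median was 0.02. EPHA2, a receptor tyrosine kinase, was at 265 and 274 CPM against 1070 and 1080 CPM (log2 fold change -1.995, SE 0.04). LIF, an IL-6 family cytokine, was at 118 and 124 CPM against 316 and 321 CPM (-1.40, SE 0.05). IL6, chosen after its values were seen, stood on the other side, at 46.5 and 49.7 CPM against 12.6 and 14.5 CPM (1.83, SE 0.09). The collagenase gene MMP1, a classical AP-1 target, had 3 and 4 counts in ICAM1-high and 1 and 3 in ICAM1-low, too few to test.

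CREB targets were mostly lower, with 11 lower and 3 higher among 16 tested of 20 listed, and a median of -1.03. PTGS2, the inducible cyclooxygenase, was at 675 and 611 CPM against 3956 and 3825 CPM (log2 fold change -2.60, SE 0.04). AREG, an EGFR ligand, had a log2 fold change of -2.79 (SE 0.06), and PDE4D, which degrades cAMP, of -0.93 (SE 0.04). The 3 higher genes, chosen after their values were seen, were CITED2 (1.34, SE 0.08), SIK1 (1.34, SE 0.13) and BCL2 (0.78, SE 0.23). Target lists of this kind overlap with those of other factors, and binding was not measured.

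Heat shock genes, which encode chaperones, were higher in ICAM1-high in 12 of 12 cases, beside 30.4% of all genes tested. This list, like the others, was chosen with earlier results of these data known. Its summed level was 7640 to 7693 CPM in ICAM1-high against 3436 to 3458 CPM in ICAM1-low. HSPA8 was higher by 3.28 (SE 0.04) and HSP90AA1 by 1.34 (SE 0.04). Of 12 fibroblast markers 8 were tested and 6 were higher, 6 of the 8 being under 1 CPM in ICAM1-low, and their summed level was 37.6 to 42.5 CPM against 6.84 to 8.998 CPM. COL1A1, a collagen chain, had 505 and 551 counts in ICAM1-high and 60 and 66 in ICAM1-low, LUM 43 and 56 against 3 and 5, FAP 17 and 25 against 0 and 1, and TWIST1 53 and 60 against 14 and 15. COL1A2, COL3A1 and DCN had between 0 and 2 counts in every library, and POSTN had 0. Of 10 endothelial markers 5 were tested and 4 were higher, 3 of the 5 being under 1 CPM in ICAM1-low, and they summed to 49.2 to 53.2 CPM against 32.4 to 35.2 CPM. Most of the ICAM1-low sum was EGFL7, which was not called (25.5 and 26.2 against 27.3 and 31.4 CPM). ENG had 284 and 346 counts in ICAM1-high and 64 and 44 in ICAM1-low, PECAM1 76 and 57 against 14 and 12, ERG 37 and 52 against 0 and 0, and CDH5 37 and 27 against 0 and 1. VWF, KDR, TEK, TIE1 and CLDN5 had between 0 and 5 counts in every library, too few to test. LUM, FAP, PDGFRB, ERG and CDH5 passed the filter on low counts only through their ICAM1-high libraries. The numbers of fibroblast and endothelial markers called higher were thus partly set by the filter. Of 12 leukocyte markers, which summed to 24.8 to 26.0 CPM against 18.5 to 19.4 CPM, 2 were tested. CD14 was higher (0.98) and ITGAM lower (-0.50), while PTPRC, CD3E, CD3D and MS4A1 had 0 counts in all 4 libraries. The part of heat shock, fibroblast, endothelial and leukocyte transcripts in the differences of the AP-1 and CREB-type factors was not tested.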

How the data were processed

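The authors deposited raw read counts per Ensembl gene for the 4 libraries in a single table, and each column was matched to its sample by the description in the labels. FastQC 0.10.1 and the build GRCh38 are named per the submitters' processing notes. Not given in the sources used here were the aligner, the counter and the strand setting. All 58735 identifiers are in GENCODE release 29, which gave positions and exon lengths. Counts were tested with edgeR 4.0.16 in R 4.3.3 (quasi-likelihood, robust, TMM, default filter with a minimum count of 10 and total of 15, Benjamini-Hochberg adjustment over 16250 genes). edgeR's common dispersion of 0.00133 corresponds to 3.64% variation between libraries of a subset. SE is the fold change divided by the square root of F. The test was checked on simulated counts. Floors and SEs of low counts cover counting error and library spread only. Alternatives used DESeq2 1.42.0, limma 3.58.1, other scalings, filters and lengths, a replicate block, and omission of each library or of mitochondrial, ribosomal protein and heat shock genes. The genes and lists were chosen with earlier results of these data known. Named genes are the 10 factors, ICAM1, 3 genes lost in A549, and up to 4 called genes per list with the smallest adjusted p. Not all of these are printed, and some other genes of the lists are named beside them.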

Additional observations from a re-analysis of the deposited data

How the results depend on the processing

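Of 120 values of the 10 factors under 12 alternatives, 118 kept their direction and their side of the threshold. Both exceptions came with scaling by library size alone, where JUND missed the threshold (-0.18, adjusted p = 0.0701, against a range of 9.58e-05 to 0.0701 over its alternatives) and ATF2, which was not called, turned to 0.0768. That scaling gave 3124 genes lower and 6735 higher in ICAM1-high, in place of 4771 and 4935, and 6 of the 10 factors lower in place of 7. It also left 3 genes of the kinase list lower, 2 SRF-group genes higher, 2 turnover genes lower and 0 leukocyte markers lower. With each library left out in turn, with the lone library assumed to vary like the other subset, 2 factors were higher and 7 lower each time, among 4265 to 4588 genes higher and 4047 to 4587 lower. DESeq2 called 3785 genes higher and 3774 lower. Same-numbered libraries of the subsets did not deviate together (correlation 0.0445 across genes). A low correlation cannot tell whether they come from the same culture or sort, and the labels do not say. With the replicate number as a block, 4976 genes were higher and 4836 lower, and no call of the 10 factors changed. With the longest protein-coding transcript as length, a choice made after seeing the data, FOS was at 49.5% (ICAM1-high) and 19.5% (ICAM1-low) of its family, FOSL2 at 33.2% and 57.5%, CREB1 at 32.3% and 36.3%, and CREB5 at 15.6% in ICAM1-low. The gene lists were recomputed only with library size alone. Of the 10 factors, FOSB and CREB5 had the fewest reads, with 62 and 75 counts of FOSB in ICAM1-low and 88 to 95 of CREB5 in ICAM1-high.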

Other observations

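Between the 2 ICAM1-high libraries, 3 of the 10 factors and 3 of 21 other immediate early genes tested had a spread at or above the 90th percentile of genes of like level, and 7 and 10 lay below the 50th. FOSB differed by 1.41-fold, a spread at the 99.2nd percentile of the 4292 genes tested within 2-fold of its level. JUNB differed by 1.15-fold (97.7th percentile), FOS by 1.11-fold (90.1st percentile), and EGR1 and MYC, chosen after their values were seen, by 1.16-fold and 1.14-fold (98.8th and 97.9th percentiles). All 5 were higher in replicate 2. BTG1 differed the other way by 1.22-fold (99.0th percentile). FOSL2 and JUN, which were lower in ICAM1-high, differed between these libraries by 1.02-fold and 1.01-fold (28.2nd and 10.9th percentiles). Between the ICAM1-low libraries FOSB differed by 1.23-fold (67.6th percentile), FOS by 1.02-fold and JUNB by 1.03-fold. At or above the 90th percentile there were CREB1 (91.4th) and ATF3 (94.3rd), 1 of the 10 factors and 1 of the 21 other genes. Whether the spread differs between the subsets was not tested.

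Per exon length, JUNB stood at the 98.3rd percentile of all genes tested in ICAM1-high and the 98.4th in ICAM1-low, and FOSL2 at the 95.3rd and the 98.4th. FOS stood at the 95.7th and the 90.8th percentile, and FOSL1 at the 85.4th and the 94.4th. CREB5 moved furthest in this order, from the 46.3rd percentile in ICAM1-low to the 11.5th in ICAM1-high.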
